A study of Mus musculus with 37 samples.

Results

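Flavin-containing monooxygenases were followed in mouse liver through 4 genes of the family, Fmo1, Fmo2, Fmo4 and Fmo5. They were measured by 7 of the 30146 TempO-Seq probes in the count table, which carries 21450 gene symbols. The genes were chosen by name from this family, with their levels in the 8 groups and earlier results of these data already known, so the p-values below describe the values and are not independent support. Fmo1 had 3 probes, Fmo4 had 2, and Fmo2 and Fmo5 had 1 each. All 7 probes passed the filter on low counts, as did 18570 probes of 13004 genes in all. Probes were tested by the quasi-likelihood method of edgeR, every adjusted p below takes in all 18570 of them by the method of Benjamini and Hochberg, and a probe under 0.10 is called.

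The livers came from adult wild-type F0 mice of the outbred Crl:CD1(ICR) stock, gavaged once daily with deionized water (0 mg/kg) or with the ammonium salt of HFPO-DA, at a low (0.1 mg/kg), a middle (0.5 mg/kg) or a high dose (5 mg/kg). HFPO-DA, hexafluoropropylene oxide dimer acid, is a short perfluoroalkyl ether acid. From the control to the high dose there were 5, 5, 5 and 4 livers of males, and for females 5, 5, 4 and 4. Males were about 6 weeks old at the start and received 84 to 85 doses, over 70 days before mating and a 14-day mating period. Females were about 11 weeks old and received 53 to 65 doses, from 14 days before mating through lactation day 20 or 21. Sex therefore goes with age, number of doses, pregnancy and lactation, and these cannot be told apart in any comparison of females with males.

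Flavin-containing monooxygenases are enzymes of the endoplasmic reticulum that hold FAD as a prosthetic group, take electrons from NADPH and transfer an oxygen atom from O2 to soft nucleophiles such as amines and thioethers. FMO1 accepts many drugs and also oxidizes hypotaurine to taurine. FMO5 differs from its relatives in that it acts poorly on these substrates and can insert oxygen next to a ketone. FMO2 is best known as the lung form, and FMO4 is a minor form in most tissues.

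In GENCODE M21 (GRCm38) the protein-coding genes Fmo4 (chr1:162793188-162813972), Fmo1 (chr1:162829561-162866610) and Fmo2 (chr1:162874317-162898726) lie on the minus strand of chromosome 1 within 105539 bases. Fmo5 lies apart, on the plus strand of chromosome 3 (chr3:97628804-97655282). These are gene positions matched by symbol, since the positions and sequences of the probes were not used here. The first 75 bases of each coding sequence are shown because they hold what the members share by descent. Capitals mark the 6 codons of the glycine-rich motif that binds FAD.
Fmo1: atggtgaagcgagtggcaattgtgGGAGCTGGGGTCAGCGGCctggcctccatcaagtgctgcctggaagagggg
Fmo2: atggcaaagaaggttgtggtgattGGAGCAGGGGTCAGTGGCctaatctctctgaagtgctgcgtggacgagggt
Fmo4: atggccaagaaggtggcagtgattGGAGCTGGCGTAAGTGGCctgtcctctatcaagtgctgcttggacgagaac
Fmo5: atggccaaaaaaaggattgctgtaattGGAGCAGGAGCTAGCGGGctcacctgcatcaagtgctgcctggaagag

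The motif covers codons 9 to 14 in Fmo1, Fmo2 and Fmo4 and codons 10 to 15 in Fmo5. Over the whole coding sequences, which run from 1599 bases (Fmo1) to 1683 bases (Fmo4), aligned bases were identical at 60.5% (Fmo1 and Fmo5) to 63.6% (Fmo2 and Fmo4). The longest run of identical bases in any of the 6 pairs was 24, between Fmo1 and Fmo5.

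Library totals of the 19 males lay between 2101495 and 10548222 counts, and those of the 18 females between 7952605 and 13878254. The shallowest library was replicate 3 of the males at 5 mg/kg, and the group of males at 5 mg/kg reached 9098192 at most. Y-linked transcripts, summed over 4 genes, had 31 to 732 counts in males and 0 to 2 in females, so the labelled sexes held. Of 6 genes that peroxisome proliferators raise in mouse liver, among them Cyp4a10 and Ehhadh, the high dose raised 6 in males, and in females 5. The sources give no shared cage or litter that pairs the mice, and all 68 pairs of mice within a group differed in their counts.

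Among the Fmo probes, treatment raised 1, that of Fmo5 in females at 5 mg/kg. Between the control groups, 2 probes of Fmo1 were higher in females and the probe of Fmo5 was lower. No probe of Fmo2 or Fmo4 was called in any of the 8 comparisons. In bulk liver, a change in RNA per cell and a change in the share of cells of a type cannot be told apart, which holds for every value below.

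In males, 0 of the 7 probes were called at any of the 3 doses, against backgrounds of 0%, 0.625% and 12.7% of all probes tested. At 5 mg/kg 2359 of the 18570 probes were called in males, and no Fmo probe was among them. At no dose did the unadjusted p of an Fmo probe fall below 0.05 in males, and DESeq2 also called 0 of them at each dose. Of the 18570 probes, 1325, 1905 and 4330 had such a p at the low, middle and high dose.

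In females, 0 of 7 were called at 0.1 mg/kg (background 0%) and 0 at 0.5 mg/kg (background 0.113%), by edgeR and by DESeq2. At each of these doses the Fmo5 probe alone had an unadjusted p under 0.05, as did 442 of the 18570 probes at 0.1 mg/kg and 804 at 0.5 mg/kg. At 5 mg/kg 1 of 7 was called, against 4.52% of all probes in either direction and 2.26% raised. A share of 1 in 7 rests on a single probe. The difference between the sexes in the response to 5 mg/kg was called for 0 of 7 probes by edgeR and by DESeq2, against 0.63% of all probes, and 1 Fmo probe, that of Fmo5, had an unadjusted p under 0.05, as did 1985 of the 18570.

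**Figure D1:**
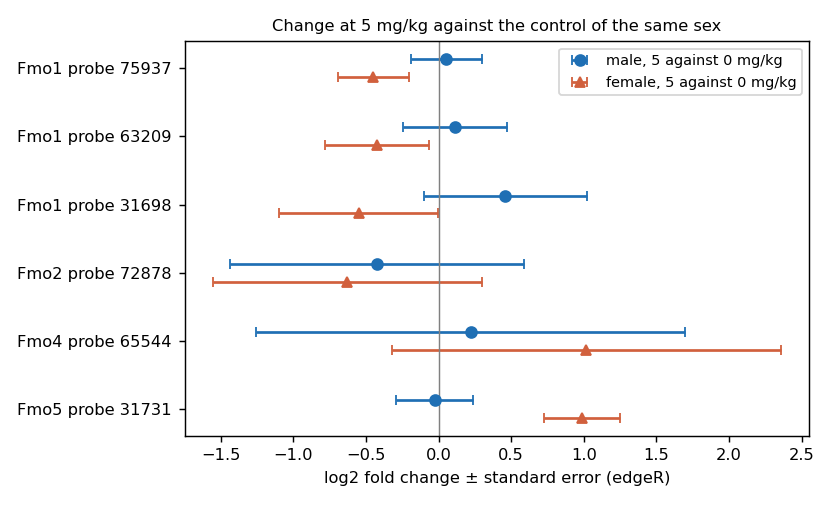
Log2 fold change at 5 mg/kg against the control of the same sex (x axis, log2 units) for 6 Fmo probes (y axis), with points for edgeR's estimate and bars for its standard error, circles for males and triangles for females. Fmo5 in females, at 0.99, is the 1 value whose test was called, and the bars of the Fmo2 and Fmo4 probes are the widest. Fmo4 probe 71098 is left out because it had no count in any male at 5 mg/kg.

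Fmo5 was read by probe 31731, with at least 199 counts in every mouse. In the control females its level was 51.5, 48.6, 49.3, 51.2 and 41.9 CPM (counts scaled to a common library total after TMM normalization), 48.5 ± 3.91 (SD, n = 5). At 5 mg/kg the 4 females read 83.4, 85.5, 122 and 94.9 CPM, 96.3 ± 17.5 (SD). All 4 treated females lay above all 5 controls, and the control females were the tightest of the 8 groups.

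The log2 fold change in females at 5 mg/kg was 0.99 (SE 0.26, adjusted p = 0.0188). This call turned on 1 of the 9 libraries compared. Without replicate 3 of the females at 5 mg/kg, the mouse at 122 CPM, the change was 0.86 and the edgeR adjusted p 0.121. With every mouse kept, the call held in each of 8 other settings, DESeq2 among them, with adjusted p of 0.00139 to 0.0188. At 0.1 mg/kg the females read 50.4, 68.5, 99.9, 87.1 and 97.9 CPM and at 0.5 mg/kg 106, 58.9, 80.7 and 69.2 CPM. The females at 0.1 mg/kg overlapped the controls through 1 mouse, and those at 0.5 mg/kg all lay above them.

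At 0.1 mg/kg the Fmo5 difference in females was 0.73 on the log2 scale (SE 0.25, unadjusted p = 0.00497, edgeR adjusted p = 1). At 0.5 mg/kg it was 0.70 (SE 0.26, unadjusted p = 0.0106, edgeR adjusted p = 1). Neither passed the threshold over the whole table. Groups that do not overlap were seen at 0.5 mg/kg for 3.01% of all probes tested in females and at 5 mg/kg for 8.71%, and Fmo5 was the 1 Fmo probe among them at both doses.

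Male levels of Fmo5 were 65.2, 111, 118, 51.6 and 90.9 CPM in the controls and 52.6, 63.0, 89.6 and 137 CPM at 5 mg/kg. These groups overlapped over most of their range. Their means were 87.2 ± 28.5 (SD, n = 5) and 85.5 ± 37.6 CPM (SD, n = 4), and the log2 difference was -0.03 (SE 0.26, edgeR adjusted p = 0.978), with a 95% interval of -0.54 to 0.49. The female estimate of 0.99 lies above that interval, but it has its own error (SE 0.26). The 95% intervals of the sexes overlapped, so they do not show that males lacked the female response. The males at 0.1 and 0.5 mg/kg had means of 83.5 ± 24.7 and 78.3 ± 26.96 CPM (SD, n = 5 each), also within the control range.

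The response of Fmo5 to 5 mg/kg was larger in females than in males by 1.02 on the log2 scale (SE 0.37, edgeR unadjusted p = 0.00901). The 95% interval of this difference was 0.29 to 1.74, but it did not pass the adjustment over all probes (edgeR adjusted p = 0.316). Without replicate 4 of the males at 5 mg/kg, the male at 137 CPM, the difference was 1.34 and was called (edgeR adjusted p = 0.0795). Hence, at the threshold over all probes, the responses of the sexes are not shown to differ when all mice are kept.

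**Figure D2:**
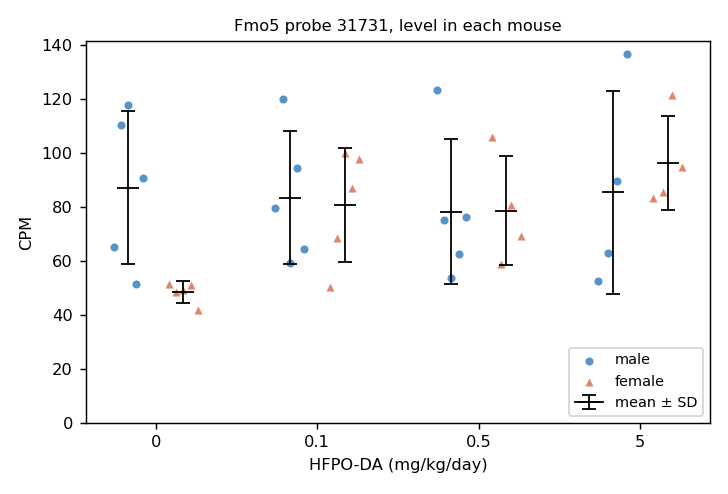
Level of Fmo5 probe 31731 in CPM (y axis, from 0) by dose of HFPO-DA in mg/kg/day (x axis, equally spaced), with 1 point per mouse, circles for males and triangles for females, and bars for the mean ± SD. The control females cluster at 41.9 to 51.5 CPM, while each of the other 7 groups has a mean between 78.3 and 96.3 CPM.

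Between the control groups, Fmo5 was lower in females by 0.85 on the log2 scale (log2 difference -0.85, SE 0.25, edgeR adjusted p = 0.0725). The groups were barely apart, since the highest control female read 51.55 CPM and the lowest control male 51.56. Leaving out any 1 of 7 of the 10 control mice (replicates 1, 2, 4 and 5 of the females and 2, 3 and 5 of the males) ended the call, with edgeR adjusted p from 0.103 to 0.228. In the order of the 8 group means, females at 5 mg/kg were highest, followed by the males at 0, 5 and 0.1 mg/kg, the females at 0.1 and 0.5 mg/kg, the males at 0.5 mg/kg, and last the control females. Between the 6 upper pairs of neighbours the exact two-sided permutation p was 0.587 to 1. The step from the males at 0.5 mg/kg to the control females had an exact permutation p of 0.00794, the smallest possible for groups of 5, or 0.0556 after adjustment across the 7 pairs of neighbours. No neighbours among the upper 7 groups differed beyond the spread between mice. The pairs came from sorting these same means, which sets like groups side by side, so these p-values only describe the order. The last pair also differs in both sex and dose.

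Cell type markers are given beside Fmo5. The summed level of 6 hepatocyte markers was 14791 to 21127 CPM in the control females and 13554 to 15764 CPM in the females at 5 mg/kg, and 2 of the 6, Ahsg and Ttr, were lowered while Fmo5 rose. Whether the share of hepatocytes bears on Fmo5 was not tested. In each of the 7 other marker lists, 0 of the genes tested were called in females at 5 mg/kg, beside 4.52% of all probes. All 7 endothelial, 8 stellate or fibroblast and 6 macrophage markers were tested, but only 3 of 5 cholangiocyte, 4 of 5 lymphocyte, 3 of 4 erythroid and 1 of 5 adipocyte markers passed the filter on low counts. Adipocyte markers summed to at most 1.77 CPM in control females and 1.19 CPM in females at 5 mg/kg, with Lep at 0 in both.

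Genes whose levels were most like Fmo5 across the 37 mice, after centring each sex on its mean, were Plin5, Pnpla2, Gm28038, Dnajc3 and Coro1c. Plin5 codes for a lipid droplet coat protein of oxidative tissues and had a Pearson r of 0.648 with Fmo5, which was 0.558 over the 29 mice at 0 to 0.5 mg/kg. Pnpla2, the adipose triglyceride lipase, had an r of 0.566, or 0.478 over those 29 mice. Coro1c, an actin-binding protein, was the fifth at 0.536. The median over 12995 genes was -0.00188. The genes compared were read in the same libraries, with depth and dose groups in common, and no test was attached to these values.

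Fmo1 was the member with the most counts, 91255 in all on probe 75937, 26010 on probe 63209 and 3739 on probe 31698. Levels cannot be compared between probes, since each has its own efficiency, so the comparisons are within a probe. On probe 75937 the control males read 139, 145, 84.7, 168 and 135 CPM, 134 ± 30.6 (SD, n = 5). The control females read 377, 386, 504, 308 and 292 CPM, 373 ± 84.0 (SD, n = 5). Every control female lay above every control male.

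The sex difference of Fmo1 in controls was 1.47 on the log2 scale for probe 75937 (SE 0.23, adjusted p = 3.11e-05 by edgeR). Probe 63209 gave 1.45 (SE 0.34, adjusted p = 0.0103 by edgeR), with control means of 105 ± 24.9 CPM in females and 38.7 ± 15.02 CPM in males (SD, n = 5 each). Probe 31698 gave 1.67 (SE 0.53) but missed the threshold with an adjusted p of 0.110, and DESeq2 called it at 0.0210. The 3 probes of Fmo1 thus gave differences of like size, and on each the control groups did not overlap. Both called probes stayed called under every setting tried and without any 1 mouse.

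Of the 7 Fmo probes, 3 were called between the control groups, 2 raised in females and 1 lowered. The background was 2.6% of all probes in either direction, 1.36% raised and 1.24% lowered. The control groups did not overlap for 5 Fmo probes, those of Fmo1, Fmo2 and Fmo5, against 4% of all probes tested. Probes on the same gene are not independent of each other, and 3 of these 5 read Fmo1. Erythroid markers also differed between these groups, with summed levels of 56.7 to 112 CPM in control males and 0.885 to 10.9 CPM in control females. Of 6 hepatocyte markers tested, 1 was called higher in females and 0 lower. The 1 was Alb, named after its value was seen (log2 difference 0.83, edgeR adjusted p = 0.000535). The median log2 difference of the hepatocyte list was 0.03, beside 0.06 over all probes. The part of these markers in the sex difference was not tested.

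**Figure D3:**
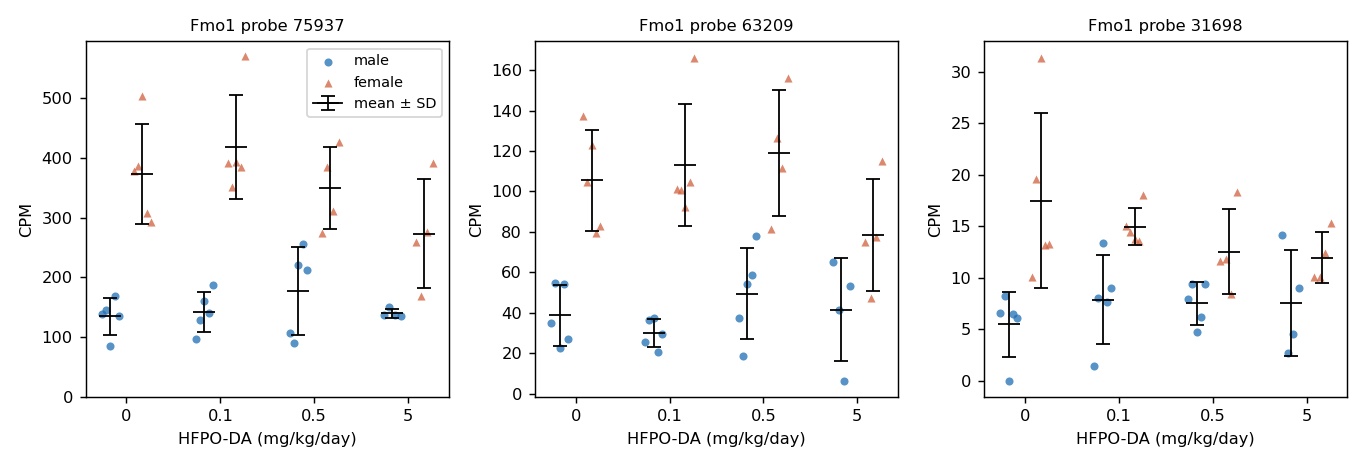
Level of the 3 Fmo1 probes in CPM (y axes, each panel with its own scale) by dose of HFPO-DA in mg/kg/day (x axes, equally spaced), with 1 point per mouse, circles for males and triangles for females, and bars for the mean ± SD. On probe 75937 every female lies above every male of the same dose, from 292 against 168 CPM in the controls to 168 against 149 CPM at 5 mg/kg.

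The order of the sexes on probe 75937 was the same at each dose. The lowest female and the highest male were 352 and 186 CPM at 0.1 mg/kg, 274 and 256 CPM at 0.5 mg/kg, and 168 and 149 CPM at 5 mg/kg. The gap between the sexes was thus widest at 0.1 mg/kg. On probe 63209 the sexes were apart at 0, 0.1 and 0.5 mg/kg and overlapped at 5 mg/kg. On probe 31698 they were apart at 0 and 0.1 mg/kg and overlapped at 0.5 and 5 mg/kg.

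Treatment called no change in Fmo1. The females at 5 mg/kg read 259, 168, 275 and 391 CPM on probe 75937, 273 ± 91.3 (SD, n = 4), and overlapped their controls through 1 mouse. Their log2 difference was -0.45 (SE 0.24, edgeR adjusted p = 0.489), with a 95% interval of -0.93 to 0.03. Probes 63209 and 31698 gave -0.42 (SE 0.36) and -0.55 (SE 0.55), in the same direction as probe 75937, and neither passed the test.

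In males at 5 mg/kg the same probe read 136, 149, 137 and 135 CPM, 139 ± 6.78 (SD, n = 4), within the range of the control males. The log2 difference was 0.05 (SE 0.24, edgeR adjusted p = 0.943), with a 95% interval of -0.42 to 0.53. The males at 0.5 mg/kg were the most spread, at 107, 89.8, 221, 256 and 212 CPM, or 177 ± 73.9 (SD, n = 5). Of these, 2 lay within the control range and 3 above it, and the difference of 0.40 (SE 0.23) was not called (edgeR adjusted p = 0.598).

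The 3 Fmo1 probes can be checked against each other within a mouse. Counts on probe 63209 were 0.280 of those on probe 75937 at the median, with a range of 0.0464 to 0.478. The lowest ratio was in the shallowest library, replicate 3 of the males at 5 mg/kg, with 17 counts against 366. After centring by sex, the level on probe 75937 had a Pearson r of 0.605 with probe 63209 and 0.444 with probe 31698 over the 37 mice. Against the Fmo5 probe it was -0.363, and -0.338 over the 29 mice at 0 to 0.5 mg/kg.

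The 5 genes most like Fmo1 on probe 75937 were Etfrf1, Cluap1, Camkk2, Fam20c and Ppp2r5a, with Pearson r of 0.591 to 0.664 over 37 mice and 0.465 to 0.690 over the 29 at 0 to 0.5 mg/kg. Etfrf1, a regulator of the electron transfer flavoprotein, was the most alike. The second Fmo1 probe, at 0.605, falls within the span of these 5 genes. The median over all 12995 genes compared was 0.0614.

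Fmo2 was read by probe 72878, with 1906 counts in all. The control females read 5.34, 7.27, 3.75, 8.16 and 10.99 CPM and the control males 0.600, 3.63, 2.41, 1.06 and 2.13 CPM. The lowest female and the highest male were close, at 3.75 and 3.63 CPM. The difference of 1.85 on the log2 scale had a wide error (SE 0.90) and was not called (edgeR adjusted p = 0.443).

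All 18 females had Fmo2 counts, 26 to 228 each, while 5 of the 19 males had none. A count of 0 allows up to 3 counts, which is 1.13 CPM in the shallowest male library at 0.5 mg/kg. Among females the mean was 9.16 ± 5.23 CPM at 0.1 mg/kg (SD, n = 5), 14.0 ± 3.94 at 0.5 mg/kg (SD, n = 4) and 4.59 ± 2.10 at 5 mg/kg (SD, n = 4). The females at 0.5 mg/kg were highest, but at 0.97 (SE 0.91) their log2 difference from the controls was about the size of its error. At 5 mg/kg the log2 differences were -0.63 (SE 0.92) in females and -0.42 (SE 1.01) in males, with edgeR adjusted p of 1 and 0.874.

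Fmo4 was the member with the fewest counts, 966 on probe 65544 and 587 on probe 71098. On probe 65544 the 18 females had 11 to 96 counts each, and 12 of the 19 males had none. On probe 71098 the females had 9 to 53 counts each, and 14 of the 19 males had none. Both probes were therefore counted in every female and had no count in most males, with female levels of 1.01 to 10.6 CPM on probe 65544 and 0.687 to 5.75 CPM on probe 71098.

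Between the control groups the log2 differences of Fmo4 were 1.55 (SE 1.32, edgeR adjusted p = 0.881) and 3.35 (SE 1.40, edgeR adjusted p = 0.309). Males had shallower libraries than females, and where a male had 0 counts its level could reach 0.426 CPM in the controls and 1.13 CPM at 5 mg/kg. In the controls that limit lies below the lowest female, at 1.25 CPM on probe 65544 and 0.916 CPM on probe 71098. Control males with counts overlapped the females on both probes, and how far below the limit a male at 0 lay is not known. In a single random thinning of counts to the smallest total, Fmo4 probe 71098 was called between the control groups (edgeR adjusted p = 0.0771). In the males at 5 mg/kg all 4 mice had 0 counts on probe 71098, as did 4 of the 5 control males, and no fold is given. On probe 65544 the females at 5 mg/kg had a mean of 5.98 ± 2.48 CPM (SD, n = 4) against 2.95 ± 1.46 (SD, n = 5) in the controls. That log2 difference of 1.02 (SE 1.34, edgeR adjusted p = 0.989) was smaller than its error.

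**Figure D4:**
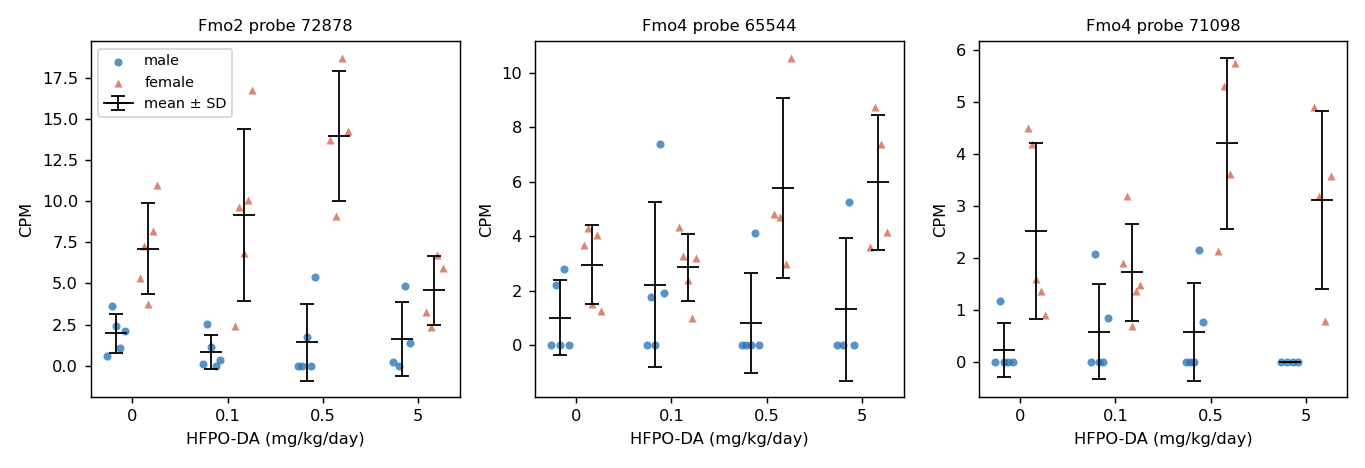
Level of the Fmo2 probe and the 2 Fmo4 probes in CPM (y axes, each panel with its own scale) by dose of HFPO-DA in mg/kg/day (x axes, equally spaced), with 1 point per mouse, circles for males and triangles for females, and bars for the mean ± SD. Many males sit at 0 on the Fmo4 probes, 12 of 19 on probe 65544 and 14 of 19 on probe 71098, and no female does.

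The genes most like Fmo2 were Amotl1, Plekha3, Gm45844, Gm15448 and Egfl8, with Pearson r of 0.619 to 0.715 over 37 mice. Those most like Fmo4 on probe 65544 were Poteg, Nfatc1, Opn3, Fam136a and Leng1, at 0.623 to 0.659. The counts behind both lists are sparse, and the values are given as a description only. The 2 Fmo4 probes had an r of 0.454 with each other.

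Genes that supply NADPH, the electron donor of these enzymes, changed in both directions. Of 11 tested, the high dose raised 3 and lowered 2 in males, while in females 1 rose and 1 fell, with median log2 differences of -0.11 and 0.25 beside -0.12 and -0.01 over all probes. The shares of all probes called at this dose were 12.7% in males and 4.52% in females. Me1, the cytosolic malic enzyme, rose by 2.29 in males (SE 0.26, edgeR adjusted p = 1.90e-08) and by 1.89 in females (SE 0.26, edgeR adjusted p = 1.36e-06). Aldh1l1, a folate enzyme that yields NADPH, was called in each sex and fell by 1.42 (males) and by 1.29 (females). Nadk, the cytosolic NAD kinase, and Pgd, of the pentose phosphate pathway, rose in males by 0.62 and 1.46, and in females their differences of 0.45 and 0.80 were not called.

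Of 6 genes for the supply of riboflavin and FAD, 0 were called at 5 mg/kg in either sex by edgeR. Over all probes the shares called were 12.7% in males and 4.52% in females. Rfk, the riboflavin kinase, differed by 0.41 in males and -0.03 in females on the log2 scale, and Acp2, an acid phosphatase, by -0.01 and -0.83. Slc25a32, the mitochondrial carrier of folate and FAD, differed by -0.53 and -0.20. The smallest unadjusted p of the list was 0.0226, for Acp2 in females. Slc52a3, a riboflavin transporter, had a mean of 0.872 CPM in control males and no count in any male at 5 mg/kg. A count of 0 allows up to 1.13 CPM in the shallowest of those libraries, which is above that control mean. The difference was not called (edgeR adjusted p = 0.176).

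Of 6 tested genes of hypotaurine and taurine, the substrate and product of FMO1, 3 were lowered in males at 5 mg/kg, and 3 were lowered and 1 raised in females. Their median log2 differences were -1.08 and -0.45, beside -0.12 and -0.01 over all probes. Of all probes, 12.7% were called in males and 4.52% in females. Cdo1, the cysteine dioxygenase at the head of the path, fell in males by 1.84 (SE 0.21, edgeR adjusted p = 2.29e-08), and females had a log2 change of -0.86 (SE 0.20, edgeR adjusted p = 0.00664). Csad, which makes hypotaurine, rose by 2.89 in females (SE 0.54, edgeR adjusted p = 0.000305) from a mean of 4.08 to 30.5 CPM, and its difference of 1.28 in males was not called (edgeR adjusted p = 0.107). Control males had a mean of 49.8 CPM, above that of the females at 5 mg/kg. The difference of the Csad responses was not called (edgeR adjusted p = 0.412). Slc6a13, a carrier of taurine, and Baat, which joins bile acids to taurine, fell in each sex by 0.66 to 0.90.

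Of 11 other oxidases of amines and sulfur compounds and members of the microsomal electron chain, 1 rose and 3 fell in males, while the females had 1 higher and 2 lower. The median log2 differences were 0.11 and 0.32, beside -0.12 and -0.01 over all probes, of which 12.7% (males) and 4.52% (females) were called. Aox3, an aldehyde oxidase, fell in males by 2.45 (SE 0.26, edgeR adjusted p = 4.85e-09), and the females dropped by 1.67 (SE 0.25, edgeR adjusted p = 1.31e-05). Cyb5a, the microsomal cytochrome b5, fell by 0.66 and 0.55, and Cyb5b, its relative on the mitochondrial outer membrane, rose by 0.60 and 0.61. Xdh, the xanthine dehydrogenase, fell by 3.04 in males from a low level of 6.80 CPM. Fmo1, the member with the most counts, had no called change with treatment beside these.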

How the data were processed

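The authors assayed scraped sections of fixed liver by TempO-Seq and deposited raw read counts per probe, without normalization, for 37 mice. The paper left out libraries whose depth or number of sequenced probes was too low. They came from the females at 0.5 and 5 mg/kg and the males at 5 mg/kg, the groups with 4 mice each. The submitters' processing notes name bcl2fastq 2.17.1.14 and Bowtie. The genome build is not given in the sources used here. Mice were grouped by the labelled sex and dose.

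The analysis used edgeR 4.0.16 (R 4.3.3), with filterByExpr for the 8 groups, TMM scaling and 1 quasi-likelihood model of all 37 mice with a mean per group. The 8 comparisons were each dose against the control of its sex, females against males in the controls, and the difference of the 5 mg/kg responses. Standard errors are the log2 fold change over the root of F, and 95% intervals are normal approximations from them. Total counts of 2101495 to 13878254 set the precision, and errors are those between mice. Where nothing says that mice came from separate litters or cages, p-values measure only the spread between these mice.

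CPM are counts over TMM-scaled totals. Likeness used log2 CPM with a prior count of 2. Neighbouring group means were compared by exact permutation tests in scipy 1.17.1, and coding sequences from GENCODE M21 were aligned with Biopython 1.88. The alternatives were DESeq2 1.42.0, its size factors within edgeR, no filter, a mean count of at least 10, a robust fit, each sex fitted apart, probes summed per gene, counts thinned to the smallest total, each mouse left out in turn, and 0.05 as the threshold. The scripts were tested on simulated counts.

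The members, lists and alternatives were chosen with earlier results of these data known. Named genes are all members, the 5 genes most like each member, and up to 4 genes of each list with the smallest p at 5 mg/kg in either sex. Alb and Lep lie outside this rule and were named after their values were seen.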

Additional observations from a re-analysis of the deposited data

Results flagged for a closer look

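In 8 of the 55 combinations of a probe and a group that were examined, 1 mouse lay far from the others of its group, and chance alone flags about 1 in 20 where values are not tied. On Fmo1 probe 75937, replicate 5 of the females at 0.1 mg/kg read 570.6 CPM, with the next mouse at 393 CPM, and the same mouse read 166 CPM on probe 63209, with the next at 105 CPM. Replicate 2 of the males at 5 mg/kg read 149 CPM on probe 75937 in a group whose other 3 mice lay at 135 to 137 CPM, so the gap is small in itself. Replicate 3 of the control males had 0 counts on Fmo1 probe 31698, while the next mouse read 6.11 CPM.

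On Fmo4 probe 65544, replicate 4 of the males at 0.1 mg/kg read 7.39 CPM (31 counts), replicate 4 of those at 0.5 mg/kg 4.10 CPM (40 counts) and replicate 3 of those at 5 mg/kg 5.25 CPM (14 counts). The other males at 0.5 and 5 mg/kg had 0 counts on that probe. On probe 71098, replicate 2 of the control males read 1.17 CPM (9 counts) and its group was otherwise at 0. In the last 3 of these groups any single mouse with a count would be picked out, so the rate of 1 in 20 does not hold for them.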

How the results depend on the processing

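No paired analysis was possible because the labels give no numbers that pair mice. Of the counts of called Fmo probes, 3 changed by more than 1.5 times. Thinning counts to the smallest total, in a single random draw, called 5 probes between the controls, adding Fmo1 probe 31698 and Fmo4 probe 71098. Leaving out 1 mouse gave 0 to 1 calls in females at 5 mg/kg and 0 to 1 for the difference of the responses. Both turned on Fmo5, as given with its values. At a threshold of 0.05, Fmo5 between the controls was not called.

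Signs changed only for differences that were not called under any of these settings. Fmo5 in males at 5 mg/kg was 0.063 with DESeq2 and 0.063 with its size factors, and Fmo4 with probes summed was 0.29 in males at 0.5 mg/kg and -0.11 at 5 mg/kg. Without 1 mouse, the log2 differences in males at 0.1 mg/kg spanned -0.028 to 0.21 for Fmo1 probe 75937, -0.092 to 1.96 for Fmo4 probe 65544, -0.014 to 1.64 for Fmo4 probe 71098 and -0.22 to 0.089 for Fmo5. In males at 0.5 mg/kg they spanned -0.48 to 0.68 for Fmo4 probe 65544 and -0.18 to 1.67 for probe 71098. In males at 5 mg/kg they spanned -0.060 to 0.73, -0.21 to 0.46 and -0.10 to 0.12 for Fmo1 probes 31698, 63209 and 75937, -1.85 to 0.049 for Fmo2, -0.11 to 1.06 for Fmo4 probe 65544 and -0.37 to 0.11 for Fmo5. In females at 0.1 mg/kg they spanned -0.37 to 0.095 and -0.092 to 0.21 for Fmo1 probes 31698 and 63209 and -0.25 to 0.17 for Fmo4 probe 65544, and at 0.5 mg/kg -0.21 to 0.049 for Fmo1 probe 75937. For the difference of the responses they spanned -0.69 to 1.22 for Fmo2 and -0.064 to 1.12 for Fmo4 probe 65544. The cause was not tested. A fold was left out wherever a group had no count. Male counts of Fmo2 and Fmo4 were often 0, and the part of library depth in this was not tested. The thinning was a single random draw, so its call of Fmo4 probe 71098 between the controls (edgeR adjusted p = 0.0771) may differ in another draw.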
